A study of Homo sapiens with 4 samples.

Results

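The genes described here make and remove ubiquitin marks. They were chosen by their symbols in the deposited table of skipped exons: every event of a gene whose symbol starts with USP or UBE followed by a digit, with a mean of at least 20 junction reads over the 4 libraries. This gave 587 events on 456 exons in 83 genes, of 54503 events in 9999 genes that met the same read minimum. Without that minimum the table held 654 such events in 85 genes, of 65601 events in all. The 3 events just over the minimum belonged to UBE2J2, with means of 20.25 and 21 reads, and to USP54, with a mean of 21.5 reads; the 3 just under it belonged to USP43, with 18.75 and 19.75 reads, and to USP8, with 19.25 reads.

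The cells were 293T, also written HEK293T, an established human embryonic kidney line. Per the labels, 2 libraries came from cells without an antisense oligonucleotide (ASO), whose treatment is given as none, and 2 from cells given an ASO that targets Snord89, a box C/D small nucleolar RNA. The ASO was a gapmer with a 5-10-5 MOE layout, a modified DNA strand that directs cleavage of the RNA it pairs with, lipofected at 70 nM; cells received fresh medium after 24 hours and were lysed for RNA after 48 hours. The protocol text is the same for all 4 libraries, so it does not say whether the cells without ASO received the lipid reagent, and it names no control ASO. The labels call the libraries of a group biological replicates without saying more of their origin. The comparison asks which exons are included differently once the small nucleolar RNA is knocked down. The name of the table puts SNORD89 ahead of no ASO, and it is filed under a library of ASO-treated cells. Neither its headers nor the labels state which of its sets of libraries had the ASO, so every direction below is that of the first set against the second set, and the libraries of a set are called library 1 and library 2.

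Ubiquitin is passed from an activating enzyme (E1) to the active-site cysteine of a conjugating enzyme (E2), and a ligase (E3) then brings the loaded E2 to the protein to be marked. Most UBE2 genes encode E2 enzymes, some of which carry related modifiers such as NEDD8; most UBE3 genes encode ligases of the HECT type, and UBE4A and UBE4B encode ligases of the U-box type. The USP genes encode the largest family of human deubiquitinases, cysteine proteases that trim or remove ubiquitin. Many of these proteins are made in forms that differ by an exon, and an exon whose length is no multiple of 3 shifts the reading frame when it is skipped.

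The libraries held 38613055 and 39012939 junction reads (first set) and 42868431 and 43929373 (second set), summed over events, so a read that serves several events is counted in each. Counts per 1000000 of these reads are called normalised reads, and the chosen genes took 7450 and 6840 of them in the libraries of the first set and 5730 and 5860 in those of the second. Among tested events of these genes, the libraries of the second set differed by more than 0.2 in inclusion level at 26 (4.44%), against 4 (0.681%) for the libraries of the first set; over all tested events the shares were 5.47% and 1.93%. Of 8 genes listed as expressed by this line, 4 had events (VIM, PAX2, KRT8 and HNRNPA1), with 4470 to 5170 normalised reads in all. Nearly all of that sum was HNRNPA1, with 170340 to 221360 junction reads a library. VIM had 3859 to 5561, PAX2 52 to 89 and KRT8 23 to 50, while NEFM, NEFL, LHX1 and KRT18 had no event. Of 10 genes of other cell types, GFAP alone had events, with at most 0.205 normalised reads.

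Most exons of the ubiquitin genes were included nearly always. The inclusion level is the share holding the exon among transcripts of the forms of an event, after correction for the length of each form. Its mean was above 0.95 at 422 of 587 events (71.9%, against 66.1% of all tested events) and below 0.05 at 54. It lay from 0.1 to 0.9 at 59 events (10.1%, against 15.2%). The median exon was 116 nt long and the median event had 198.5 reads per library, close to the 118 nt and 190 reads over all tested events. Of the 456 exons, 175 (38.4%) had a length that is a multiple of 3, against 40.3% of all tested exons. Where the exon was coding and its place in the frame could be read from GENCODE release 29, skipping kept the frame at 115 exons and shifted it at 142, of which 133 met an early stop codon in the joined sequence. A transcript with the skipping junction exists in that release for 214 of the 587 events.

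**Figure D1:**
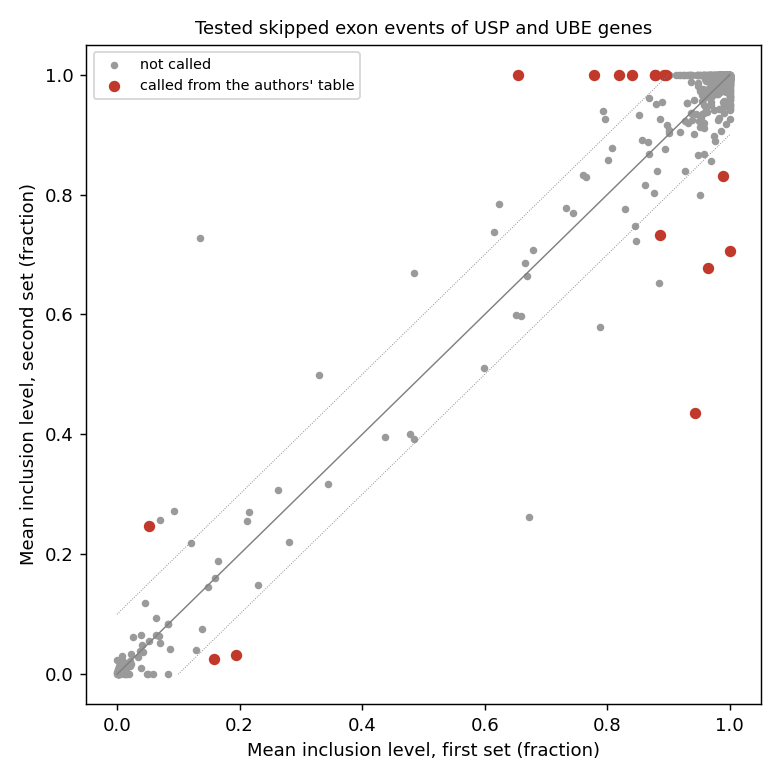
Mean inclusion level (fraction) of each of the 587 tested events in the first set (horizontal axis) and the second set (vertical axis); each point is the mean of 2 libraries, the solid line marks equal levels and the dotted lines a difference of 0.1. Of the 16 called events in red, 8 lie on the upper edge, where the second set had no skipping reads, and most grey points sit near the corners of full inclusion or full skipping.

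In the authors' deposited table, 16 events in 13 of these genes had a false discovery rate (FDR) under 0.05 and a difference in inclusion level of at least 0.1. That is 2.73% of the 587 events, beside a background of 2.71% of all tested events, so exons of these genes were called about as often as exons in general. Inclusion was higher in the first set at 7 of them (1.19%, background 1.34%) and lower at 9 (1.53%, background 1.37%). Before adjustment, 76 events had a p-value under 0.05 according to the authors' deposited table (12.9%, background 14.3%), and the levels of the sets did not overlap at 127 events (21.6%, background 22.8%), among them 13 of the 16. Lack of overlap was common among calls in general. Over all tested events it held at 654 of 748 calls lower in the first set and 514 of 729 calls higher in it. The median difference, first set minus second, was -0.002, as over all tested events.

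None of the 16 passed a quasi-binomial test with Benjamini-Hochberg adjustment over all 54503 events. Its error is the scatter between libraries, pooled into a dispersion shared by all events, so the scatter at a single event does not enter. That test passed 0 of the 587 events, beside a background of 0.0055% (3 events), and the smallest adjusted p among these genes was 0.849. In simulated data with added scatter between libraries, it recovered 85 of 200 planted changes of 0.3 in the share of inclusion reads. Smaller changes were not simulated, so the 0 does not show that they are absent. Without adjustment 21 events (3.58%) had a quasi-binomial p under 0.05, background 3.72%, of which 5 were among the 16. In limma, fitted to log2 ratios of the reads of both forms, 38 events (6.47%) had an unadjusted p under 0.05, background 4.87%; its 0 adjusted calls carry no information, since it recovered no planted change in simulated data of this design. With 2 libraries against 2, an exact permutation test cannot give a 2-sided p below 0.333. The 16 calls are therefore described below by the reads behind them, with 95% Wilson intervals where they help; the intervals cover counting error only, since the reads carry no molecular identifiers.

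**Figure D2:**
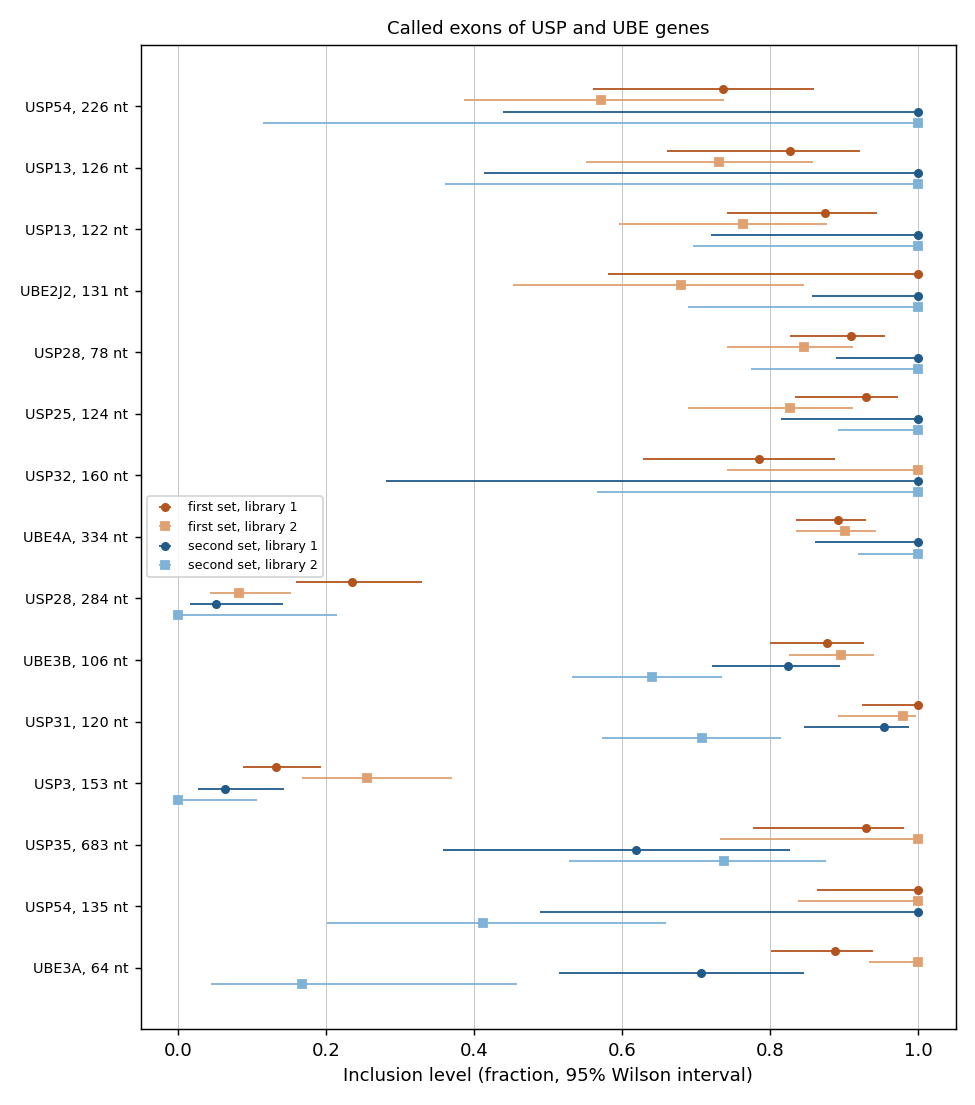
Inclusion level (fraction, horizontal axis) in each of the 4 libraries for 15 of the 16 called events, named by gene and exon length; bars are 95% Wilson intervals from the junction reads. From USP54 226 nt to UBE4A the first set is lower, from USP28 284 nt to UBE3A it is higher, and at 12 of the 15 the points of the sets do not overlap. Over all tested events the sets did not overlap at 654 of 748 lower calls and 514 of 729 higher calls.

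The conjugating enzymes had 195 tested events in 31 genes, and 2 events were called (1.03%, beside 2.71% of all tested events), both lower in the first set. One was a 131-nt exon of UBE2J2 (chr1:1203242-1203372, minus strand), an E2 anchored in the membrane of the endoplasmic reticulum. It had 10, 25, 43 and 16 reads, and all 5 skipping reads came from library 2 of the first set, which alone was below full inclusion, at 0.68. The difference of -0.16 was 0 without that library and -0.32 without library 1 of the first set. The deepest event on that exon, with a mean of 1301.5 reads, gave 0.935 and 0.954 against 0.923 and 0.946.

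Alternative exons were named from the event with most reads on each exon, where its mean level lay from 0.1 to 0.9. Those of UBE2D3, UBE2Z and UBE2F had overlapping levels in the 2 sets. UBE2D3, which serves many ligases, included a 150-nt untranslated exon at 0.565 and 0.633 in the first set and at 0.6 and 0.422 in the second, where library 2 alone was low. UBE2Z, which takes its ubiquitin from the E1 enzyme UBA6, included a 132-nt coding exon at 0.875 and 0.86 against 0.784 and 0.952. With these neighbours, the UBE2Z exon was matched only in a transcript typed as nonsense-mediated decay, not as protein-coding. UBE2F, an E2 of NEDD8, used 68-nt and 101-nt forms of an exon that end at the same base and share their skipping reads. The 68-nt form stood at 0.876 and 0.857 against 0.859 and 0.918, and the 101-nt form at 0.697 and 0.661 against 0.669 and 0.747. Library 2 of the second set was the highest of the 4 for both forms.

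UBE2D1 and UBE2C held alternative coding exons that are shown because skipping them shifts the frame. UBE2D1 belongs to the same E2 family as UBE2D3, and UBE2C starts ubiquitin chains for the anaphase-promoting complex. The exons below are written 5′ to 3′ on the strand of the gene, with the first and last 3 bases, those next to the splice sites, in capitals; sequences come from GENCODE release 29 transcripts, and positions are hg19 as in the table.
UBE2D1 exon 3: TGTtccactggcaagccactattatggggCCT
UBE2C exon 4: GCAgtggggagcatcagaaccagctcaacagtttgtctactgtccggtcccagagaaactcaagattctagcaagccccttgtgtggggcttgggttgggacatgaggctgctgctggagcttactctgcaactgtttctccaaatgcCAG
The 32-nt exon of UBE2D1 (chr10:60121255-60121286, plus strand; transcript UBE2D1-201) was included at 0.912 and 0.878 in the first set, against 0.829 and 0.922 in the second. Joined without it, the sequence reads into a stop codon 2 bases after the junction. The 151-nt exon of UBE2C (chr20:44444029-44444179, plus strand; transcript UBE2C-202) was included at 0.356 and 0.519 against 0.344 and 0.449, and its skipping gives a stop 21 bases after the junction in that transcript. For both exons the library levels of one set overlapped those of the other. The UBE2C level compares only the forms of its event, not all UBE2C transcripts. With another pair of neighbouring exons, the 151-nt exon had 28 to 59 inclusion reads a library. An adjoining 205-nt exon, with that same pair and the same skipping reads, had 2015 to 2656.

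The ligases of the UBE3 and UBE4 names had 57 tested events in 6 genes, of which 3 were called (5.26%, beside 2.71% of all tested events). UBE3A, the HECT ligase also known as E6AP, which is lost in Angelman syndrome, had the largest difference of the 16. Its 64-nt untranslated exon (chr15:25657055-25657118, minus strand) was included at 0.887 and 1 in the first set and at 0.706 and 0.167 in the second, a difference of 0.507. The reads were 110 and 76 against 31 and 9. Both first-set libraries were higher than both of the second, but library 2 of the second set rested on 2 inclusion and 7 skipping reads, with an interval of 0.0451 to 0.458. Without that library the difference was 0.238, and without library 1 of the second set it was 0.777. A shallower event on the same exon, with another neighbouring exon, ran the other way: 0.373 and 0.286 against 0.189 and 0.808, a difference of -0.169.

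UBE3B, another HECT ligase, included a 106-nt untranslated exon (chr12:109919442-109919547, plus strand) at 0.877 and 0.896 in the first set and at 0.824 and 0.64 in the second, on 101 to 173 reads a library. Library 2 of the second set was the lowest: the difference of 0.155 was 0.0625 without it and 0.246 without library 1 of that set. UBE4A, a U-box ligase, differed the other way. Its 334-nt coding exon (chr11:118245611-118245944, plus strand) had 18 and 11 skipping reads in the first set, for levels of 0.891 and 0.901, and none among 47 and 86 reads in the second. The 47 and 86 reads still allow levels down to 0.86 and 0.918, so the intervals of the sets overlapped, and the difference of -0.104 was -0.0987 without library 1 of the first set. Skipping this exon shifts the frame and gives a stop 21 bases after the junction; no transcript of GENCODE release 29 joins its neighbours.

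The USP deubiquitinases carried the other 11 calls, among 322 tested events in 42 genes (3.42%, beside 2.71% of all tested events); in 8 genes, the first set was the higher one at 5 events and the lower one at 6. Alternative coding exons of USP15, USP4 and USP8 are shown here because each keeps the frame when skipped and reads on into the usual stop codon, so that the forms differ by an inserted stretch alone. USP15 and USP4 are close relatives that share a domain plan, and USP8 acts on cargo and sorting proteins at endosomes. USP15 was named by depth; USP4 and USP8 were singled out after their values were seen.
USP15 exon 7: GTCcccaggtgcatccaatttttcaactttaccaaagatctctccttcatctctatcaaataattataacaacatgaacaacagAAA
USP4 exon 7: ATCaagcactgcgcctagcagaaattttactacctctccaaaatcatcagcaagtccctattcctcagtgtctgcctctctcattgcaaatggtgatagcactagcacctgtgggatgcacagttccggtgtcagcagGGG
USP8 exon 12: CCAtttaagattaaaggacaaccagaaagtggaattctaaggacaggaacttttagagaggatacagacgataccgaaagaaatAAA
These 3 exons are 87, 141 and 87 nt long, lie at chr12:62743002-62743088 (plus strand), chr3:49348947-49349087 (minus strand) and chr15:50776472-50776558 (plus strand), and are numbered in transcripts USP15-201, USP4-201 and USP8-201.

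The USP15 exon was included at 0.574 and 0.656 in the first set (mean 0.615 ± 0.0583, SD, n = 2) and at 0.733 and 0.741 in the second (0.737 ± 0.00568, n = 2). Both second-set libraries were higher, by 0.122 on average, but the event was not called: its FDR in the authors' deposited table was 0.115, and its quasi-binomial adjusted p was 0.849. The USP4 exon gave 0.658 and 0.66 against 0.425 and 0.771, with the second-set libraries on both sides of the first set. The USP8 exon gave 0.65 and 0.688 against 0.61 and 0.72, and its sets differed by 0.004. At all 3 exons the form with the exon was thus the more common form of the event in every library except library 1 of the second set at USP4.

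The other deep alternative exons of USP genes had differences under 0.1. USP19, which has a form anchored in the endoplasmic reticulum, used 303-nt and 300-nt versions of a coding exon (chr3:49154492-49154794 for the longer, minus strand) that share their skipping reads. The 303-nt version stood at 0.843 and 0.871 in the first set, against 0.863 and 0.92 in the second. The 300-nt version stood at 0.752 and 0.777 against 0.797 and 0.863, with both second-set libraries higher. USP21, a deubiquitinase that acts on histone H2A, showed an untranslated exon in 141-nt and 178-nt versions. The 178-nt version stood at 0.241 and 0.219 against 0.112 and 0.185, and both first-set libraries were higher, by 0.081 on average. The 141-nt version stood at 0.308 and 0.254 against 0.17 and 0.27. USP33 included a 179-nt partly coding exon at 0.266 and 0.26 against 0.302 and 0.312, with both second-set libraries higher, by 0.044 on average. USP47, which acts in base excision repair, showed the widest scatter, with 0.719 and 0.614 for a 204-nt coding exon in the first set and 0.481 and 0.889, from 40 and 51 reads, in the second.

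**Figure D3:**
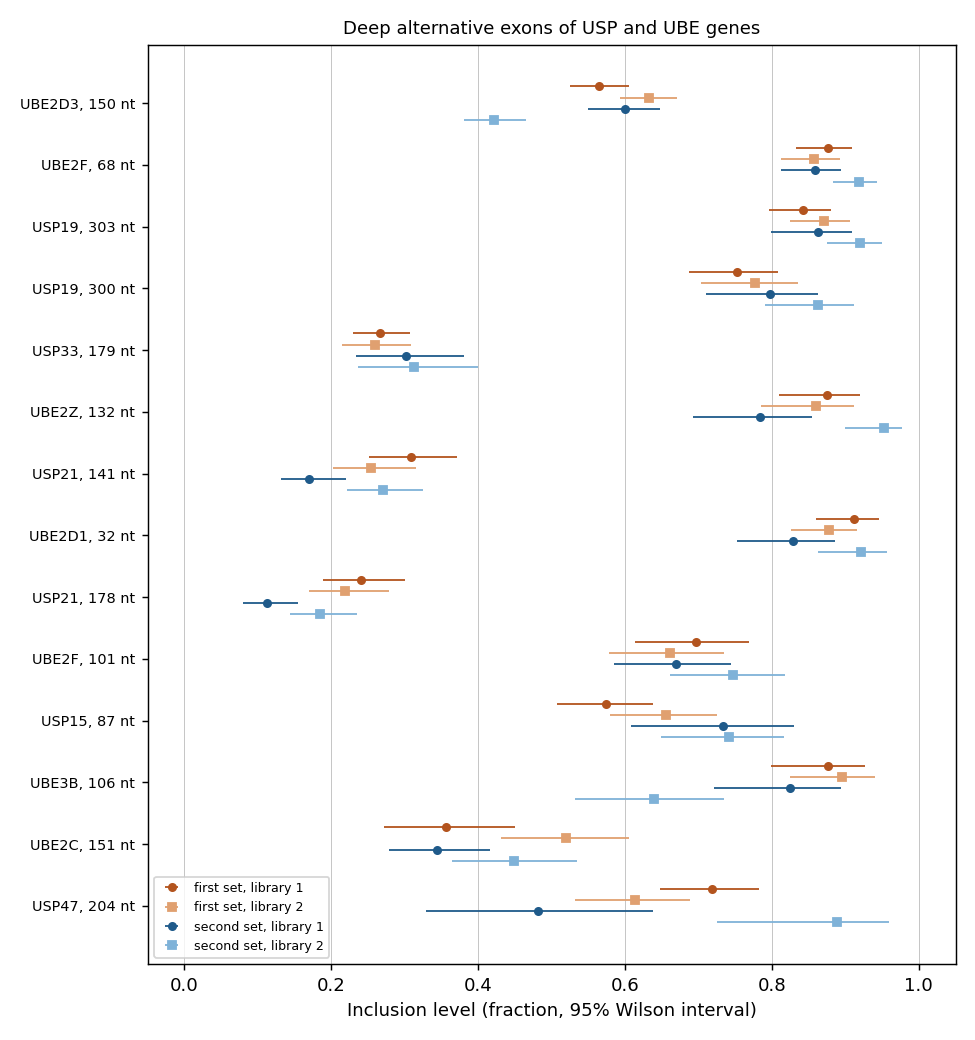
Inclusion level (fraction, horizontal axis) in the 4 libraries for 14 of the 15 deepest exons whose event with most reads had a mean level from 0.1 to 0.9, named by gene and exon length and ordered by depth; bars are 95% Wilson intervals. At UBE2D3, UBE2Z and USP47 the libraries of a set lie further apart than the means of the sets, while at USP15 both second-set libraries are the higher ones.

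Of the USP calls, 3 lay on coding exons where the called event was itself the deepest event of the exon and its frame could be read. They are shown because 2 of them keep the frame and the other does not.
USP28 exon 2: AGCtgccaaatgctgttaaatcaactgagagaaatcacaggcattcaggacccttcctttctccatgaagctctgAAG
USP25 exon 4: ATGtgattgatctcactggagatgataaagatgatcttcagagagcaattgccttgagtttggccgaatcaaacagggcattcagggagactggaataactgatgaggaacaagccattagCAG
USP31 exon 12: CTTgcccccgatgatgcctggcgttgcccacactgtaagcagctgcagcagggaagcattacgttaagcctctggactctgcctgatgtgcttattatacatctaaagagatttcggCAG
USP28, which stabilises MYC, and its closest relative USP25 had their exons at chr11:113724980-113725057 (minus strand, 78 nt, transcript USP28-201) and chr21:17150223-17150346 (plus strand, 124 nt, transcript USP25-201). The USP31 exon lies at chr16:23093759-23093878 (minus strand, 120 nt, transcript USP31-201). Skipping keeps the frame at USP28 and USP31, and at USP25 it gives a stop 17 bases after the junction. No transcript of release 29 joins the neighbours of any of these 3 exons in these events.

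USP28 exon 2 was included at 0.909 and 0.845 in the first set, with 7 and 10 skipping reads, and had no skipping read among 47 and 20 reads in the second set. USP25 exon 4 was included at 0.929 and 0.826 in the first set, with 4 and 7 skipping reads, and had none among 31 and 58 reads in the second. Both differences were -0.123. Without library 2 of the first set they were -0.0906 at USP28 and -0.0709 at USP25. The second-set reads allow levels down to 0.889 and 0.774 at USP28 and down to 0.815 and 0.892 at USP25, which overlaps the intervals of the first set. USP31 exon 12 went the other way, at 1 and 0.979 in the first set, against 0.953 and 0.708 in the second, a difference of 0.159. Of its 16 skipping reads 13 came from library 2 of the second set, and the difference was 0.0366 without that library and 0.281 without library 1 of the second set.

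Partly coding exons of USP genes, each exon 2 of a transcript, gave 3 calls, all higher in the first set. USP3, a histone H2A deubiquitinase, included a 153-nt exon (chr15:63821213-63821365, plus strand) at 0.132 and 0.256 in the first set and at 0.0633 and 0 in the second, the 0 from 16 reads. With these neighbours, the USP3 exon was matched only in transcripts typed as nonsense-mediated decay, not as protein-coding. The difference was 0.163, and 0.1 without library 2 of the first set. USP28 included a 284-nt exon (chr11:113745239-113745522, minus strand) at 0.235 and 0.0826 against 0.0508 and 0, the 0 from 7 reads. That difference of 0.134 was 0.0571 without library 1 of the first set and 0.209 without library 2 of that set. A 363-nt version of the USP28 exon, starting at the same base in the table and with more reads, stood at 0.447 and 0.242 against 0.152 and 0.481. The skipping junction of the 284-nt event is also an inclusion junction of the called 78-nt exon of USP28. The USP28 calls are therefore not independent of each other. USP35 included a 683-nt exon (chr11:77907282-77907964, plus strand) at 0.929 and 1 against 0.619 and 0.737. Its difference of 0.287 rested on 2 and 0 skipping reads in the first set, against 4 and 5 in the second, and the sets did not overlap.

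The remaining 5 USP calls had few reads in the second set. USP54 included a 226-nt untranslated exon (chr10:75335894-75336119, minus strand) at 0.736 and 0.571 in the first set, with 7 and 9 skipping reads. The second set held 6 reads and 1 read there, all of inclusion, so its levels of 1 allow values down to 0.439 and 0.115. The difference of -0.347 was the largest among the calls that were lower in the first set. A 135-nt coding exon of USP54 (chr10:75305296-75305430, minus strand) was fully included except in library 2 of the second set, at 0.412 from 14 reads; the difference of 0.294 was 0 without that library and 0.588 without library 1 of the second set. USP13, a relative of USP5, had a call on its 126-nt exon 2 (chr3:179399666-179399791, plus strand), at 0.827 and 0.73 against 1 and 1, a difference of -0.222. The other USP13 call was on its 122-nt exon 4 (chr3:179418796-179418917), at 0.874 and 0.763 against 1 and 1, a difference of -0.181. Both USP13 calls count the same skipping reads, 5 and 7 in the first set, on a junction that skips both exons, so they are not independent. The second set held 5 and 4 reads at exon 2 and 18 and 16 at exon 4. USP32 had a call on its 160-nt exon 5 (chr17:58365884-58366043, minus strand), at 0.785 and 1 against 1 and 1, where all 7 skipping reads came from library 1 of the first set; the difference of -0.107 was 0 without it and -0.215 without library 2 of the first set.

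Several calls were not shared by the other events on their exon. The table holds an event for each pair of neighbouring exons, and 6 of the 16 calls had a deeper event on the same exon that was not called, among them USP13 exons 2 and 4, UBE2J2, USP32 and the 135-nt exon of USP54. At USP13 exon 4 the deepest event stood at 0.971 and 1 against 1 and 1, with a mean of 61.75 reads. At USP13 exon 2 it stood at 0.855 and 0.849 against 0.867 and 1, at USP32 at 0.966 and 0.966 against 1 and 1, and at USP54 at 0.982 and 1 against 1 and 1. Of the other 10 calls, 4 kept a difference of at least 0.1 whichever library was left out: UBE3A, USP35, USP3 and the 226-nt exon of USP54. These have limits too. The USP54 exon had 6 reads and 1 read in the second set, and USP3 was at 0.1 without library 2 of the first set. The shallower event on the UBE3A exon ran the other way, at -0.169.

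**Figure D4:**
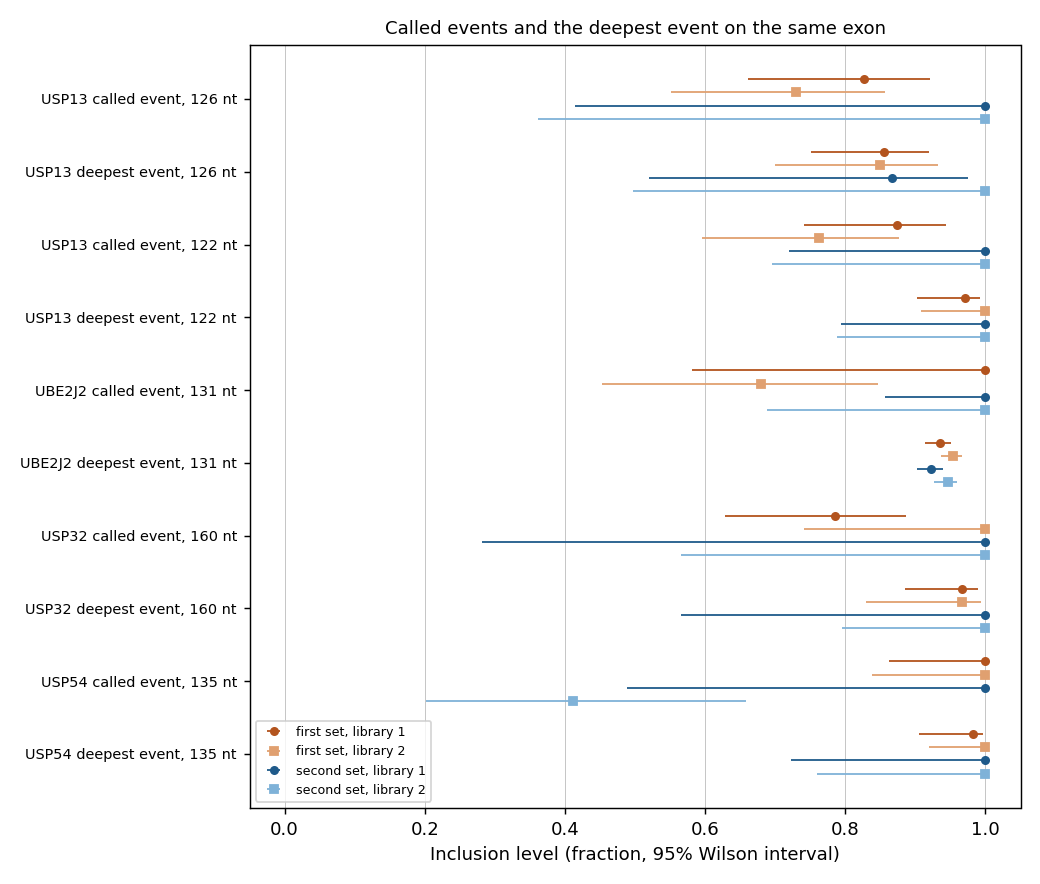
Inclusion level (fraction, horizontal axis) in the 4 libraries for 5 called events that had a deeper event on the same exon, each followed by that deepest event; bars are 95% Wilson intervals. The deepest event of UBE2J2 has narrow intervals with both sets intermixed, and those of USP32 and USP54 lie above 0.95 in all 4 libraries.

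Lower calls of the first set went with missing skipping reads in the second set. At 8 of the 9 events that were lower in the first set (88.9%) the second set had no skipping read, against 338 of 748 such calls over all tested events (45.2%). The median read number at these 9 events was 45.5 in the first set and 29.5 in the second, and at the 7 higher events it was 78.5 and 25. The part of this read difference in the calls was not tested. Just under the difference of 0.1, a 61-nt coding exon of USP10, a deubiquitinase that binds the stress granule protein G3BP1, was the deepest: it stood at 0.848 and 0.841 in the first set, against 0.757 and 0.738 in the second, with 210 to 382 reads per library and a difference of 0.097. Its sets did not overlap, its FDR in the authors' deposited table was 0.0357, and its quasi-binomial adjusted p was 0.849. The others just under that size were a 71-nt exon of UBE3A (0.084), a 69-nt exon of USP10 (0.08), a 132-nt exon of USP32 (-0.083) and a 95-nt exon of USP40 (-0.079). The calls just over 0.1 in size were USP32, UBE4A, USP25 and both USP28 calls. The 132-nt exon of USP32 and the called USP32 exon share their skipping reads. The skipping junction of the 61-nt exon of USP10 is also an inclusion junction of its 69-nt exon. A 162-nt non-coding exon of USP8, singled out after its values were seen, had a larger difference than any call, -0.592, from 75, 59, 16 and 4 reads, and its FDR in the authors' deposited table was 0.0606.

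Most of these genes also had fewer reads in the second set. Normalised reads were lower in both second-set libraries than in both first-set libraries for 65 of the 83 genes (78.3%), against 60.9% of all 9999 genes. These are shares of all junction reads in the table, so less RNA of these genes and more of others cannot be told apart. The median ratio of second set to first was 0.618 for these genes and 0.77 for all genes, and 28 genes (33.7%) were under 0.5, against 21.6%. No test across genes was made on these sums. By role, the E2 enzymes had a median ratio of 0.811 (0.346 to 1.34), the UBE3 and UBE4 ligases 0.518 (0.267 to 0.825) and the USP deubiquitinases 0.499 (0.217 to 0.931).

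The E2 enzymes covered both directions. UBE2S, which lengthens chains made by the anaphase-promoting complex, had the highest ratio, 1.34, with 874 and 1000 normalised reads in the first set, against 1210 and 1300 in the second. UBE2L3, an E2 used by HECT and RBR ligases, had 240 and 225 against 257 and 282, and UBE2M, an E2 of NEDD8, 87.5 and 96.8 against 108 and 101. The lowest E2 was UBE2W, which can mark the amino terminus of proteins, with 5.98 and 5.74 against 1.91 and 2.14. In each of these 4 genes the sets did not overlap.

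Over all 9999 genes the upper quartile of the ratio was about 1, and 60.9% of genes were lower in the second set without overlap. All 42 tested USP genes had a ratio below 1, and in 38 of them the sets did not overlap. USP12 and USP46, relatives that work with the cofactor UAF1, were among the lowest: USP12 had 7.2 and 4.74 normalised reads in the first set, against 1.56 and 1.02 in the second, a ratio of 0.217, and USP46 had 22.3 and 17.4 against 3.92 and 5.3, a ratio of 0.232. USP22, the deubiquitinase of the SAGA complex, had 114 and 73.6 against 29.5 and 32.9. USP9X had 308 and 208 against 90.3 and 94, and USP7, which acts on MDM2 and p53, 89.2 and 77.3 against 49.6 and 53.9. The closest to equal were USP11, at 0.931, USP5, at 0.916, and USP40, at 0.884. USP39, a spliceosome protein that lacks deubiquitinase activity, stood at 0.828, with 233 and 222 against 179 and 198. Among ligases UBE4A was the lowest, with 54.6 and 40.3 against 12.8 and 12.6.

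**Figure D5:**
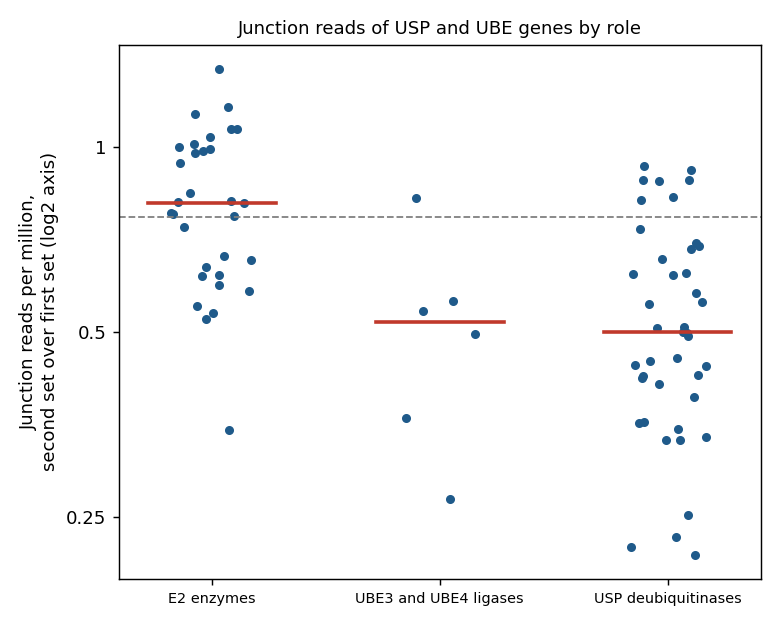
Ratio of normalised reads (per 1000000 junction reads) in the second set to the first set (log2 axis) for each tested gene, by role; red bars are medians of the genes and the dashed line is the median of all genes, 0.77. The E2 enzymes lie on both sides of 1, and all 42 USP genes lie below it. The upper quartile of all genes is about 1.

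Transcript length moved with these ratios. The longest protein-coding transcript in GENCODE release 29 had a median length of 3122 nt for the E2 genes, 5494.5 nt for the ligases and 5038 nt for the USP genes. Over all genes with a length, the median ratio of second set to first was 1.07 where that transcript was at most 2232 nt, 0.825 up to 3486.5 nt, 0.638 up to 5258 nt and 0.495 beyond. The chosen genes in the same length groups had medians of 0.912 (10 genes), 0.842 (17 genes), 0.581 (28 genes) and 0.424 (25 genes). The part of transcript length in the ratios was not tested.

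Symbols that only look like family members were kept by the rule. They had 13 tested events and no call: USP2-AS1, an antisense RNA; USP6NL, which is no deubiquitinase; UBE2Q2P1, a pseudogene; and UBE2F-SCLY, a read-through of UBE2F and its neighbour. How reads shared between such a gene and its partner were assigned is not given in the sources used here, so their values are uncertain.

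The rest of the ubiquitin system was taken from 4 lists: ubiquitin genes, E1 and E1-like enzymes, other deubiquitinases and HECT ligases outside the UBE3 names. Of their 76 gene symbols, which include OTULIN and its other symbol FAM105B, 63 had tested events. Among these, 4 of 406 events were called (0.985%, beside the background of 2.71%), with the first set higher at 1 and lower at 3. The ubiquitin genes had 0 calls among 9 events, the E1 enzymes 0 among 72, the other deubiquitinases 1 among 164 (0.61%) and the HECT ligases 3 among 161 (1.86%). The list of other deubiquitinases also held SENP genes, COPS5 and COPS6, so not every gene on it is a deubiquitinase. In the quasi-binomial test 0 of the 406 passed after adjustment and 7 had an unadjusted p under 0.05. The best measured call was a 75-nt exon of UCHL5, a deubiquitinase of the proteasome, at 0.665 and 0.662 in the first set, against 0.552 and 0.39 in the second, on 199 to 241 reads a library. Its difference was 0.192, and 0.112 without library 2 of the second set. The HECT calls were HUWE1 (-0.145, and 0.0132 without library 2 of the second set), HERC3 (-0.307, and -0.0607 without library 1 of the second set) and HECTD4 (-0.129, with no skipping reads in the second set).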

How the data were processed

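Poly(A) RNA-seq libraries from 293T cells were read as pairs of 150 bases. The submitters' processing notes name cutadapt, STAR and the build hg19; the table has the layout of rMATS for skipped exons on junction reads, per the file headers, and its rMATS version is not given in the sources used here. Per the file headers, the deposited table gives inclusion and skipping reads, inclusion levels, a p-value and FDR from the authors, and a difference score from -1 to 1, first set minus second. Levels recomputed from the reads differed from the authors' by at most 0.0005. Coordinates are hg19 as deposited, with 1-based starts.

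Events with a mean of at least 20 reads were kept. The quasi-binomial test used a dispersion moderated with limma 3.58.1 in R 4.3.3, with prior 3.517 and a floor of 1. The prior had infinite degrees of freedom, so every event was given the dispersion of 3.517. In simulated data, 200 events with levels between 0.05 and 0.95 were changed by 0.3 in the share of inclusion reads. The test recovered 160 of them with counting error alone and 85 with added scatter between libraries. Limma on log2 ratios (pseudocount 0.5) was an alternative that recovered none. Python 3.11.15 ran the rest. Exons were matched to GENCODE release 29 by the spacing of exons within a gene, for 643 of 654 events, and exon sequences were copied from its transcripts; no position was converted. No exon in an untranslated region is printed as sequence. Named events were those called, those passing the quasi-binomial test, and the 15 deepest exons whose event with most reads had a mean level from 0.1 to 0.9 (other events on an exon were not considered). Also named were the 5 nearest each side of a difference of 0.1 among events with an FDR under 0.05. Members and lists were chosen with earlier results of these data known. One gene covered by these rules counts in the totals and is not reported by name here.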

Additional observations from a re-analysis of the deposited data

How the results depend on the processing

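The count of called events among the USP and UBE genes was 16. It was 7 with a minimum of 50 reads, 26 with a difference of at least 0.05, 5 with a difference of at least 0.2, 10 at an FDR under 0.01 and 10 with the deepest event of each exon. It was 19 with a minimum of 10 reads, 16 with FDR recomputed over tested events and 13 where the sets did not overlap, and leaving out each library in turn left 12 to 16, fewest without library 2 of the second set. The quasi-binomial count was 0 under every quasi-binomial alternative run. The alternative without a floor could not differ, because the shared dispersion was above the floor. The count was also 0 with limma at both pseudocounts, which says nothing of stability, since limma with a pseudocount of 0.5 recovered no planted change in simulated data and the other was not simulated. Leaving out a library gave 0 to 29 events at an unadjusted p under 0.05; the 29 are 4.95% of the events fitted, below the 7.68% of all tested events under the same setting, and over all events the share ran from 0.251% to 7.68%. These fits leave 1 library in a set, assumed to vary like the others; they were not simulated, so their 0 is no sign of stability. Without the correction for form length, the differences of USP25 (-0.0715), USP32 (-0.0603), UBE4A (-0.0549) and the 78-nt exon of USP28 (-0.0845) were under 0.1 in size, while those of USP3 (0.261) and the 284-nt exon of USP28 (0.218) were larger; no called difference changed sign under any alternative. No paired analysis was possible because the columns of the table carry no replicate numbers. Low second-set reads, 9 or fewer per library at several calls, limit what can be seen there.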
